A study of Mus musculus with 6 samples.

Results

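The smooth muscle contractile genes described here are 10 genes, Acta2, Actg2, Tagln, Cnn1, Cnn2, Myl9, Tpm1, Tpm2, Lmod1 and Myh11, taken by symbol from a table of read counts for 55453 gene symbols. All 10 symbols are in the table and 9 passed the filter on low counts, out of 14877 that did in the whole table. The genes were chosen by symbol, as contractile and actin-binding targets of SRF and the myocardin factors, with their measured count differences between knockout and wild type already known. Their differences are therefore given as descriptions, without tests, while tests are given for other genes.

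The libraries are poly(A)-selected RNA of SB28, a mouse glioma line carrying a C57BL/6 strain label, with 3 libraries whose genotype is given as PP2A KO (titles PP2AcKO) and 3 given as Wild Type (titles PP2AcWT). PP2Ac is the catalytic subunit of protein phosphatase 2A. The series' design text instead describes SB28 tumours, subcutaneous or intracranial, grown in wild-type and in LysMcrePP2Acfl/fl hosts, whose LysM-driven Cre acts in myeloid cells. Which cells carry the deletion is thus not settled. The labels used here give no age, no agent or time of treatment and no way in which a knockout of SB28 was made. They do not say whether it is 1 clone or whether replicates are separate cultures. Where replicates are not separate cultures, a p value covers only library-to-library spread, which may be technical. Ppp2ca, the gene of the alpha form of PP2Ac, was at 274, 244 and 247 CPM (read counts scaled to a common library size, with TMM factors) in the libraries labelled wild type and at 217, 187 and 193 CPM in those labelled knockout. It fell by 0.36 on the log2 scale (SE 0.08, edgeR quasi-likelihood test, adjusted p = 0.00377) and remained abundant, and counts per gene cannot show the loss of single exons. "Knockout" and "wild type" below name the labelled groups.

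Smooth muscle cells shorten when myosin II filaments pull on actin filaments, after a calcium-activated kinase phosphorylates the regulatory light chain of myosin. Much of this machinery is transcribed under control of SRF, a factor that binds the CArG box and works with myocardin or the related factors MRTF-A and MRTF-B, which are held in the cytoplasm by unpolymerised actin. Tumour cells with mesenchymal features, fibroblasts turned into myofibroblasts and cultured adherent cells can also express parts of this programme, Acta2 above all.

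RefSeq promoter sequence (build GRCm38.p6) was at hand for 7 of the 10 genes. Actg2, Tagln and Myh11 had no entry. The 250 bases before each transcription start were searched on both strands for the CArG box, the SRF site with a core of 6 letters that are A or T. They were also searched for a CArG box in which 1 core letter is C or G, and for the MCAT element GGAATG, the TEAD factor site, whose matches overlap no CArG match here. An unaltered CArG box lay before Myl9 and Cnn2, and an altered one before Acta2, with 2 matches, and Myl9. The MCAT element lay before Acta2, Lmod1 and Tpm1, and none of these motifs lay in the windows of Cnn1 and Tpm2. Among all 32851 promoters of the same length, 1.47% held the CArG box, 7.24% the altered form and 12.6% the MCAT element. Sequences are shown for Acta2, Myl9 and Cnn2, which hold CArG-type matches, and for Lmod1, whose MCAT element lies outside the GENCODE gene. The MCAT elements of Acta2 and Tpm1, at -146 and -56, lie inside the annotated genes and are not shown. The CArG boxes, altered ones included, and the MCAT element of Lmod1 are in capitals. A match is a description of the letters and was not tested as a site. For Acta2, GENCODE M21 begins the gene 217 bases upstream of the RefSeq start, so both sites (minus strand, chr19:34255438-34255467 and chr19:34255388-34255417) lie in the annotated first exon and only the sites are shown. They run from -84 to -75 and from -34 to -25 relative to the RefSeq start. The other 3 runs are the upstream sequence outside the GENCODE gene, all on the plus strand: chr2:156775214-156775419 for Myl9, chr10:79988350-79988583 for Cnn2 and chr1:135324563-135324806 for Lmod1.
Acta2 site at -84: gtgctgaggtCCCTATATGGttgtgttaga
Acta2 site at -34: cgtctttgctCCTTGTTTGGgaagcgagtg
Myl9: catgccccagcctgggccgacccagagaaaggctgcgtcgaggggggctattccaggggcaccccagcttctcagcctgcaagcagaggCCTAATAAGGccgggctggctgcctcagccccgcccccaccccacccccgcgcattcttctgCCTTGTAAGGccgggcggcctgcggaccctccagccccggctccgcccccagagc
Cnn2: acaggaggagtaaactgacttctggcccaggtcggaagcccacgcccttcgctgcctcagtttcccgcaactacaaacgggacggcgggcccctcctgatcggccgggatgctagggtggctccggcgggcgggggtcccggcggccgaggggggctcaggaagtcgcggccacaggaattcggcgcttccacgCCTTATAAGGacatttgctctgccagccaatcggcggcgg
Lmod1: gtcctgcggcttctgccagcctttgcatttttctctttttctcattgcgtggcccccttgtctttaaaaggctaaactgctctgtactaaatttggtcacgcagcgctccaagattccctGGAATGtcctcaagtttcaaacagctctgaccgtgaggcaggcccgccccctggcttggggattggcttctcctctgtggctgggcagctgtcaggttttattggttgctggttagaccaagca

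**Figure D1:**
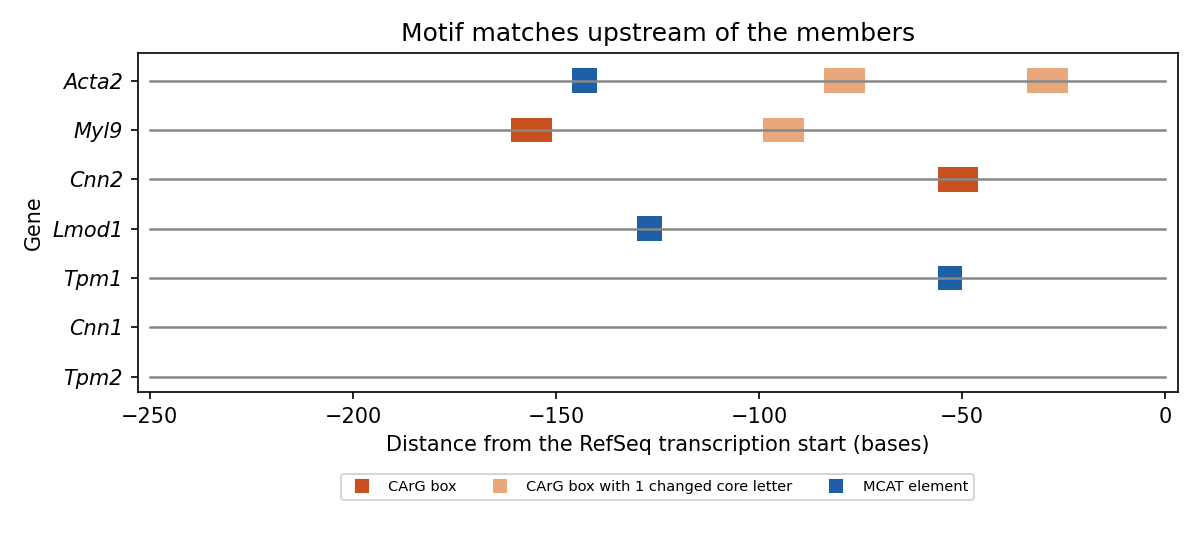
Motif matches in the 250 bases before the RefSeq transcription start of 7 genes, with the distance from that start in bases on the x axis and 1 line per gene. Acta2 and Myl9 hold 2 CArG-type matches each, Cnn2 holds 1, and Cnn1 and Tpm2 hold no match.

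The contractile genes fell into a group that was nearly lost in the knockout libraries, a group that was lower but still abundant, and a pair that was barely detected in either. Acta2, Tagln, Cnn1, Myl9 and Lmod1, which mark the smooth muscle programme, were between 27.1-fold and 80.7-fold lower for the 4 of them with knockout counts. Cnn1 and Lmod1 passed the filter only through the wild-type group, where they are high. Lmod1 was rare there too, with 23, 18 and 18 counts. Cnn2, Tpm1 and Tpm2, which many adherent cells express, were between 2.24-fold and 3.66-fold lower. Actg2 and Myh11 had at most 19 counts in any library. In 8 of the 10 genes the knockout values all lay below the wild-type values, in 1 gene all above, and in 1 the groups overlapped. Over all genes tested, 34.4% lay wholly below and 33.9% wholly above, and since the genes were chosen with this contrast known, nothing is read from the difference. RNA from bulk material cannot tell fewer cells of a kind from less message per cell.

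Among the actins, Acta2 encodes alpha smooth muscle actin, the usual marker of smooth muscle and myofibroblasts (chromosome 19, 34241090 to 34255590, minus strand, GRCm38). Its level was 328, 335 and 350 CPM in wild type 1, 2 and 3, and the knockout libraries 1, 2 and 3 held only 7.1, 7.0 and 6.41 CPM. The 3 knockout libraries were alike and far below the lowest wild-type one. Acta2 averaged 338 ± 11.4 CPM against 6.84 ± 0.373 CPM (mean ± SD, n = 3 here and below), 49.4-fold lower (log2 fold change -5.63, SE 0.08), which placed Acta2 65th from the lowest of 14877 genes. Actg2, the gene of gamma smooth muscle actin typical of gut (chromosome 6, 83512905 to 83536265), gave 2, 1 and 5 wild-type counts and 3, 6 and 1 knockout counts. It was below the filter, and a difference was not detectable at this depth, with a wild type over knockout ratio of 0.740 (95% exact counting interval 0.254 to 2.08). Coding sequences of Acta2 and Actg2 were identical at 84.4% of aligned bases, but no window of 75 bases of any of the 10 genes except Tagln occurred in an annotated transcript of another gene.

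Tagln and Cnn1 encode transgelin and calponin 1, related proteins that bind actin filaments in differentiated smooth muscle. Tagln (chromosome 9, 45929619 to 45936058, minus strand) had wild-type levels of 45.1, 43.6 and 47.9 CPM, while its knockout levels were 0.470, 0.659 and 0.562 CPM, with no overlap. The log2 fold change was -6.33 (SE 0.13), or 80.7-fold lower. Exons of genes on the opposite strand, Gm48529 and Pcsk7, cover 67.9% of the Tagln exon bases, and because the strand setting of the counting is not given, their reads cannot be told from those of Tagln. Neither partner was lower in the knockout: Gm48529 rose from 1.10 to 1.89 CPM (log2 fold change 0.79, edgeR adjusted p = 0.00318) and Pcsk7 stood at 27.9 and 28.8 CPM (edgeR adjusted p = 0.621).

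Cnn1 (chromosome 9, 22099216 to 22109630) was a rarer message, with 140, 167 and 140 wild-type counts and 3, 1 and 6 knockout counts. It averaged 3.35 ± 0.544 CPM against 0.0816 ± 0.0656 CPM. The log2 fold change was -5.33 (SE 0.35), and -6.07 without knockout 3, which held most of the knockout counts. Scaled counts of the summed groups gave a ratio of 41.3 (95% exact counting interval 22.3 to 86.8). Cnn2, the calponin found in many non-muscle cells (chromosome 10, 79988584 to 79996062), had wild-type levels of 433, 488 and 496 CPM, and its knockout levels were 116, 136 and 135 CPM. Library 1 was the lowest of each group, and the groups did not overlap. The log2 fold change of Cnn2 was -1.87 (SE 0.09), or 3.66-fold lower.

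Myl9 encodes the regulatory light chain whose phosphorylation starts contraction (chromosome 2, 156775420 to 156781658). Wild-type levels were 9.81, 10.2 and 10.2 CPM, and knockout levels were 0.381, 0.341 and 0.383 CPM, so every knockout library held a few percent of the wild-type level. The log2 fold change was -4.76 (SE 0.13), or 27.1-fold lower. Myh11, the smooth muscle myosin heavy chain and the most specific marker of the mature cell (chromosome 16, 14194535 to 14291372), gave 6, 2 and 10 wild-type counts and 19, 18 and 14 knockout counts. It was thus at the edge of detection in all 6 libraries and passed the filter only through the knockout group. Its log2 fold change was 1.59 (SE 0.46) and 2.24 without wild type 3.

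Tropomyosins lie along the actin filament and set which myosins and severing proteins can reach it. Tpm1 (chromosome 9, 67022590 to 67049406), which yields muscle and non-muscle forms by alternative splicing that counts per gene do not separate, was the most abundant of the 10 messages in CPM. The wild-type libraries held 1326, 1190 and 1214 CPM, the knockout libraries 422, 395 and 393 CPM, and library 1 was the highest of both groups. The log2 fold change was -1.62 (SE 0.07), or 3.08-fold lower. Tpm2 (chromosome 4, 43514711 to 43523765) had wild-type levels of 55.5, 56.1 and 57.2 CPM, and knockout levels of 23.6, 26.5 and 25.2 CPM. Its log2 fold change of -1.17 (SE 0.07), 2.24-fold lower, was the smallest among the 8 genes that were lower.

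Lmod1 encodes leiomodin 1, which nucleates actin filaments in smooth muscle (chromosome 1, 135324807 to 135368065). The wild-type libraries gave 23, 18 and 18 counts, and each knockout library gave 0. Against a floor of 3 counts over the knockout group it was 18.2-fold lower, with the wild-type counts taken as exact. The exact counting interval, of the kind given for Cnn1, had a lower limit of 14.3-fold. Floor and interval cover counting error only.

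**Figure D2:**
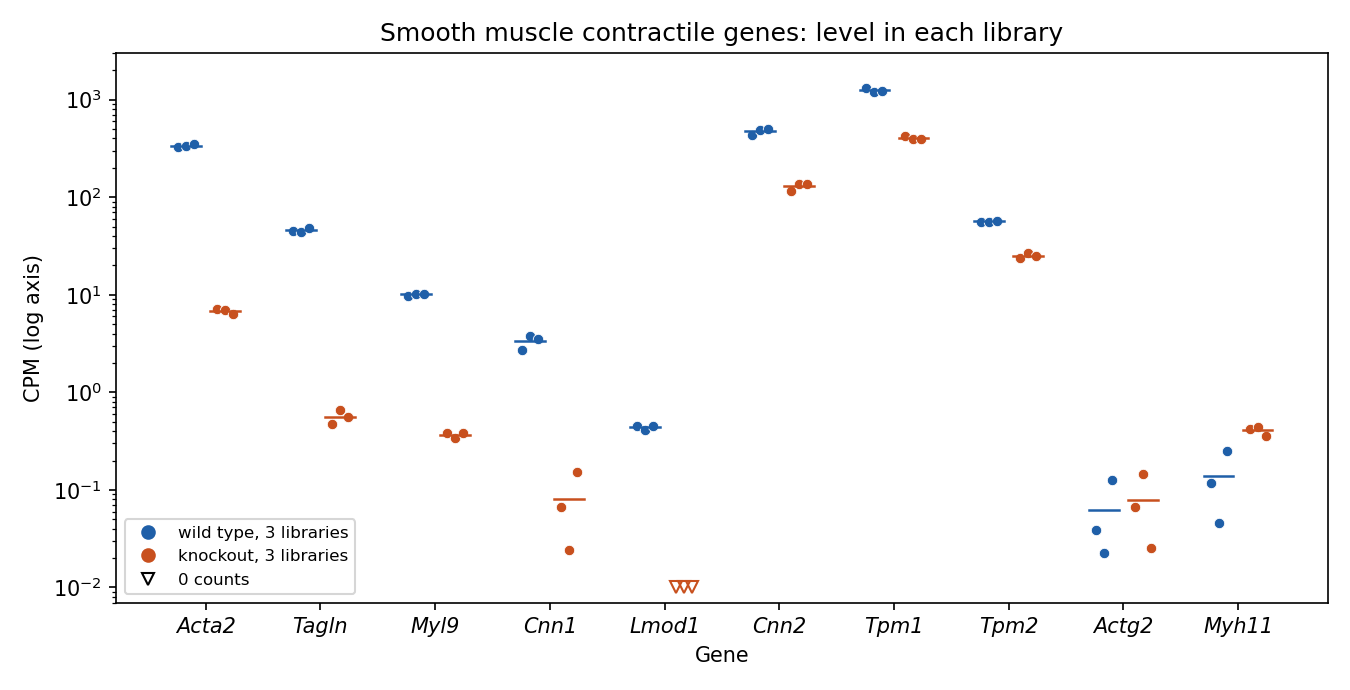
CPM of the 10 contractile genes (log axis) in each of 3 wild-type and 3 knockout libraries, with points for libraries, short lines for group means and open triangles for libraries with 0 counts. From Acta2 to Tpm2 the groups are apart with knockout below, whereas Actg2 overlaps and Myh11 is higher in knockout at under 0.5 CPM.

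**Figure D3:**
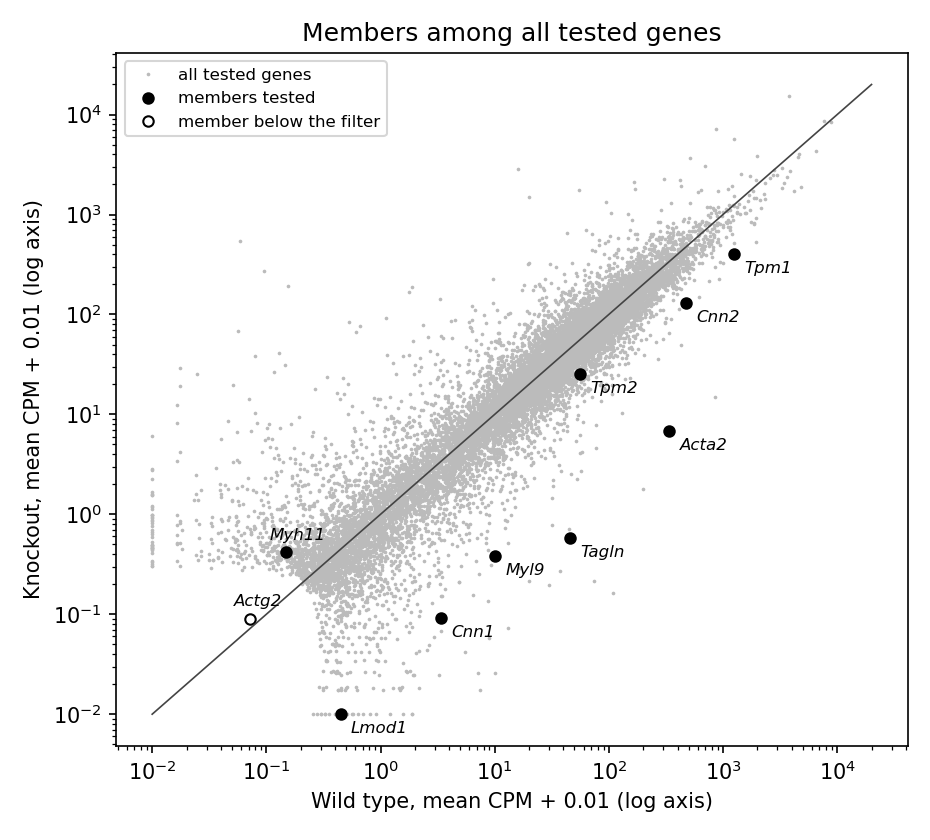
Mean CPM plus 0.01 in knockout against wild type (log axes) for all 14877 tested genes in grey and the 10 contractile genes in black, with the line of equality. Acta2, Tagln, Cnn1, Myl9 and Lmod1 lie at the lower edge of the cloud, and Cnn2, Tpm1 and Tpm2 lie nearer to the line.

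The spread between replicates differed from gene to gene. Across the 3 wild-type libraries the coefficient of variation was 3.38% for Acta2, 4.88% for Tagln, 2.20% for Myl9, 5.86% for Tpm1, 1.52% for Tpm2, 5.76% for Lmod1 and 7.19% for Cnn2, where the median of all tested genes was 8.97%. It was above that median for Cnn1, at 16.2%, and for Myh11, at 75.8%. In knockout it was 5.46% for Acta2, 6.34% for Myl9, 3.94% for Tpm1, 5.84% for Tpm2 and 9% for Cnn2, against a median of 10.3%. It was above that for Tagln, at 16.7%, for Myh11, at 10.7%, and for Cnn1, at 80.4% with 10 counts in all. Both libraries numbered 1 stand apart from the others of their groups in the series. Without both, the log2 fold changes of the 8 tested genes with counts in both groups kept their signs, and 8 genes were still wholly below in knockout. Groups already apart can hardly come to overlap when libraries are left out, so nothing is read from this.

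Compared per kilobase of exon, Cnn2 and Tpm1 had the highest wild-type levels of the 10, at 192 CPM per kb each, followed by Acta2 at 154, Tagln at 22.9, Tpm2 at 19.4 and Myl9 at 8.66 CPM per kb. Cnn1 was at 1.22, Lmod1 at 0.111, Actg2 at 0.0402 and Myh11 at 0.0182 CPM per kb. In knockout the order began with Tpm1 at 62.2 and Cnn2 at 52.4 CPM per kb, then Tpm2 at 8.62, followed by Acta2 at 3.11 CPM per kb.

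Shares within each protein family show which relatives remained. Acta2 made up 5.05 ± 0.184% of the summed actin level per kb in wild type and 0.172 ± 0.00794% in knockout, while Actb, cytoplasmic beta actin, made up 79.5 ± 0.566% and 88.9 ± 1.07%. Actg1, cytoplasmic gamma actin, went from 15.4 ± 0.508% to 10.9 ± 1.08%. The summed actin level itself went from 3047 to 1806 CPM per kb, so the knockout libraries held less actin message of every abundant form. Among calponins and transgelins, Cnn2 fell from 44.1 ± 2.38% to 20.8 ± 1.67% of the family and Tagln from 5.26 ± 0.159% to 0.113 ± 0.0185%. Tagln2, the transgelin of non-muscle cells, stood at 24.4 ± 0.866% and 45.5 ± 0.615%. Among tropomyosins, Tpm1 had 29.2 ± 0.481% in wild type and 15.7 ± 0.257% in knockout, and Tpm4, a non-muscle form, 55.0 ± 1.17% and 63.8 ± 0.965%. Myl9 had 12.7 ± 1.31% of the summed level of Myl9 and Myl12a, its non-muscle counterpart, in wild type and 0.657 ± 0.0482% in knockout.

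**Figure D4:**
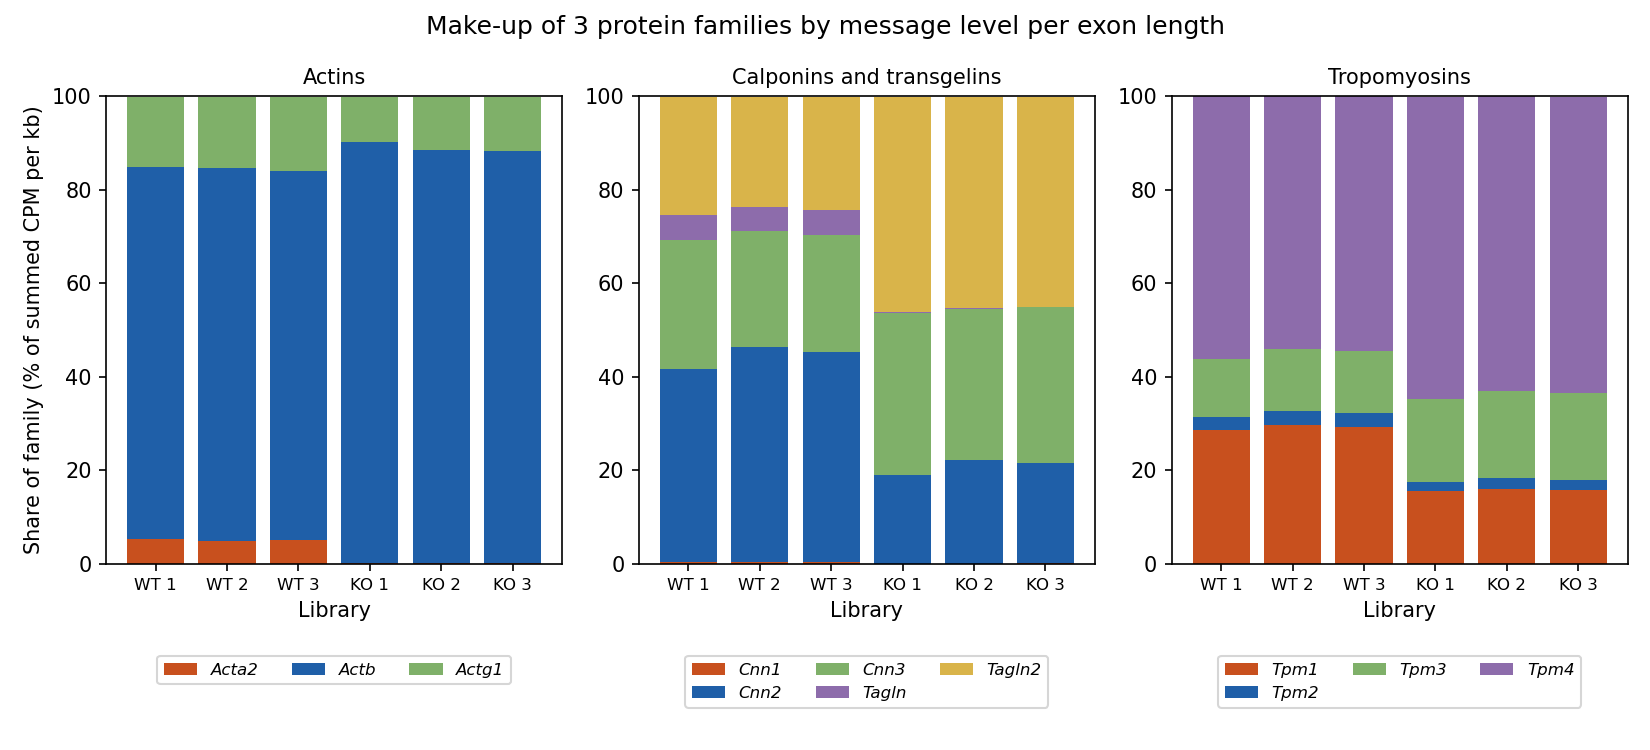
Share of each gene in the summed CPM per kb of its family (y axis, percent) in 3 wild-type and 3 knockout libraries, for actins, calponins with transgelins, and tropomyosins. Genes under 0.05% in every library are left out. Acta2 and Tagln are visible only in the wild-type bars, and the shares of Cnn2 and Tpm1 are smaller in all 3 knockout libraries.

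Of 22 other genes in these families, 16 were tested, and 12 fell, 3 rose and 1 did not pass the threshold of 0.05 (edgeR quasi-likelihood F-test, adjusted over all 14877 genes). Over all genes, 32.1% fell, 31.9% rose and 64% passed in either direction. The median log2 fold change of the family genes was -0.55, where that of all genes was -0.01. Acta1, skeletal alpha actin, fell from 1.03 ± 0.149 to 0.114 ± 0.0568 CPM (a log2 fold change of -3.16, SE 0.33, edgeR adjusted p = 3.79e-05). Tmod2, a tropomodulin that caps the slow end of actin filaments, fell from 6.51 ± 0.535 to 1.28 ± 0.328 CPM (log2 fold change -2.33). Abundant non-muscle genes fell by less: Actg1 by 1.25, Myl6 by 0.96, Myh9 by 0.85, Myh10 by 0.67, Actb by 0.59, Tpm4 by 0.51, Cnn3 by 0.42, Myl12a by 0.31 and Tpm3 by 0.22 on the log2 scale, with knockout wholly below wild type for each. Tpm3 lost the call without knockout 2 (adjusted p = 0.0654) or knockout 3 (0.0567). Myl12b fell by 0.61, and its exons cover 13.8% of the Myl12a exon bases on the same strand. Tagln2 was the tested gene that did not pass, at 221 ± 7.44 and 238 ± 2.04 CPM (edgeR adjusted p = 0.141), with edgeR adjusted p = 0.00861 with the replicate number as a block and a range over all alternatives of 0.00492 to 0.537. The 3 that rose were Tmod1 (log2 fold change 0.71), Tmod3 (0.25) and Myl6b (0.28). Tmod3 lost the call with upper-quartile factors and without wild type 2 or 3 or knockout 1 or 3 (edgeR adjusted p from 0.0639 to 0.136). Myl6b lost it with upper-quartile factors and without any single library other than knockout 1 (edgeR adjusted p from 0.0772 to 0.136). Exons of the opposite-strand gene Tstd2 cover 32.6% of Tmod1. Actc1, Tagln3, Lmod2, Lmod3, Myl7 and Myh14 were too rare to test.

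SRF itself was lower, and among its partners some genes were higher and others lower, as in the table as a whole. Srf was at 79.6 ± 15.6 CPM in wild type against 49.7 ± 9.57 CPM (log2 fold change -0.68, SE 0.17, edgeR adjusted p = 0.0076). Myocd, the gene of myocardin, was too rare for the filter, with 6, 6 and 4 wild-type counts and 4, 2 and 1 knockout counts. Mrtfa, the gene of MRTF-A, was at 79.4 ± 14.3 and 87.4 ± 13.9 CPM, a difference within the spread of the libraries (log2 fold change 0.14, SE 0.15, edgeR adjusted p = 0.45, or 0.00435 with the replicate number as a block, and 0.995 without wild type 1). Mrtfb rose from 69.4 ± 4.66 to 100.01 ± 2.29 CPM (a log2 fold change of 0.53, SE 0.07, edgeR adjusted p = 0.000197).

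Of 18 genes listed as SRF partners, cofactors or known repressors of smooth muscle genes, 16 were tested, 6 rose, 5 fell and 5 did not pass, with a median log2 fold change of 0.06. Called genes made up 68.8%, near the 64% over all genes. Klf4, a zinc finger factor known to repress smooth muscle genes, rose from 212 ± 14.4 to 384 ± 25.5 CPM (a log2 fold change of 0.86, SE 0.08, edgeR adjusted p = 1.67e-05). Gata6, a factor of vascular smooth muscle, rose from 0.321 ± 0.126 to 4.51 ± 0.372 CPM (a log2 fold change of 3.84, SE 0.24). Fhl2, a LIM protein that binds SRF, rose by a log2 fold change of 0.88, Prrx1, a mesenchymal homeobox factor, by 0.57 and Pias1, a SUMO ligase, by 0.25. Hopx, a small homeodomain protein that restrains SRF, fell from 17.9 ± 1.30 to 4.25 ± 0.377 CPM (a log2 fold change of -2.08, SE 0.11), with exons of its antisense gene over 27.2% of its exon bases. Lmo7 fell by 0.62, Elk4, an ETS partner of SRF, by 0.49, and Foxo4 by 0.26 on the log2 scale. Foxo4 lost the call without wild type 2 or 3 or knockout 1 or 2 (edgeR adjusted p up to 0.1). Pias1 lost it with upper-quartile factors and without wild type 2 or 3 (edgeR adjusted p up to 0.0795). Elk3, another ETS partner, was at 234 ± 2.88 and 231 ± 6.71 CPM (edgeR adjusted p = 0.845). Elk1, Tead1 and Scai did not pass either (edgeR adjusted p = 0.0904, 0.13 and 0.233), but passed with the block (0.00106, 0.00144 and 0.00785, the ranges over all alternatives reaching 0.303, 0.404 and 0.629).

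Of 29 other listed genes of the smooth muscle apparatus 21 were tested, 14 fell, 4 rose and 3 did not pass, with a median log2 fold change of -0.85. Those that fell were 66.7% and those that rose 19% of the tested genes, where 32.1% of all genes fell and 31.9% rose. Synpo2, an actin-bundling protein of muscle, fell from 14.8 ± 0.638 to 1.44 ± 0.372 CPM (a log2 fold change of -3.37, SE 0.16, edgeR adjusted p = 2.73e-07). Cavin1, which builds caveolae, fell from 919 ± 68.9 to 225 ± 9.83 CPM (a log2 fold change of -2.03, SE 0.08). Ppp1r12b, a targeting subunit of myosin phosphatase, fell by 1.12 and Csrp1, a LIM protein of smooth muscle, by 0.996 on the log2 scale. Smtn, which encodes smoothelin, and Slmap did not pass, at 70.6 ± 7.8 and 83.7 ± 10.8 CPM for Smtn (edgeR adjusted p = 0.0888, or 2.07e-05 with the block, and from 2.67e-06 to 0.255 over all alternatives) and at 162 ± 6.2 and 164 ± 15.3 CPM for Slmap. Smtnl2, at 38 wild-type and 30 knockout counts, is the other gene that did not pass.

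The 4 genes that rose, named after their values were seen, were Pdlim7, Filip1l, Lpp and Mylk. Lpp lost the call with upper-quartile factors and without wild type 2 or 3 (edgeR adjusted p up to 0.0926). Mylk encodes the kinase that phosphorylates the Myl9 product, and it was at 5.76 ± 0.202 and 7.05 ± 0.182 CPM (a log2 fold change of 0.29, SE 0.09, edgeR adjusted p = 0.0216), with knockout wholly above wild type. Mylk lost the call with upper-quartile factors, without the filter and without wild type 2 or 3 or knockout 2 (edgeR adjusted p up to 0.0732). Cald1, the gene of caldesmon and also named after its values were seen, was at 1203 ± 133 and 965 ± 139 CPM with overlapping groups (log2 fold change -0.32, edgeR adjusted p = 0.0371), and it lost the call without wild type 1 or 2 or knockout 2 or 3 (up to 0.132). Des, the gene of desmin, had no wild-type count (0) and 16 knockout counts, and Pln had 0 in all libraries. Des and Pln were too rare to test and are also named after their values were seen.

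Of 30 cytoskeletal and adhesion genes known as SRF targets in many cell types, 29 were tested, 16 fell, 4 rose and 9 did not pass, with a median log2 fold change of -0.46. Called genes made up 69%, near the 64% over all genes, with 55.2% falling where 32.1% of all genes did. Vcl, the focal adhesion protein vinculin, fell from 858 ± 15.3 to 301 ± 8.67 CPM (a log2 fold change of -1.51, SE 0.06, edgeR adjusted p = 1.13e-07), with opposite-strand exons over 25.5% of its exon bases and over 27.1% of those of Capn2. Fhl1 fell by 1.88, Capn2, a calpain protease, by 1.13 and Parva, the adhesion protein alpha-parvin, by 1.01 on the log2 scale. The abundant Msn and Tln1, which encode moesin and talin, did not pass (edgeR adjusted p = 0.0555 and 0.153), but did with the block (0.000116 and 0.000127, with ranges over all alternatives up to 0.193 and 0.424). The 4 that rose, Enah, Vasp, Cap1 and Capg, act on actin filaments, and they are named after their values were seen. Capg lost the call with upper-quartile factors and without wild type 1 or 2 or knockout 2 or 3 (edgeR adjusted p up to 0.102). With the replicate block 8 rose and 19 fell. The block also called more genes over the whole table, in both directions, so these larger counts are not read as particular to SRF targets.

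**Figure D5:**
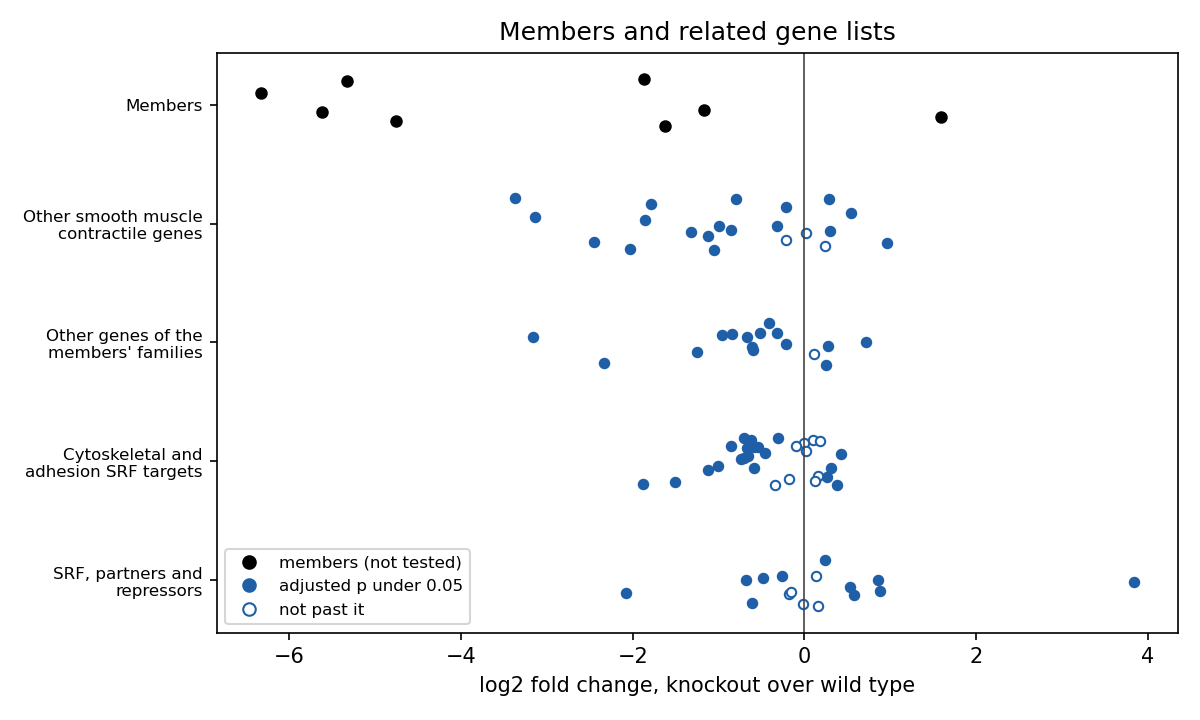
log2 fold change, knockout over wild type (x axis), of the contractile genes and of 4 related gene lists, 1 point per gene past the filter, with the contractile genes in black without a test and list genes in blue, filled where the edgeR adjusted p is under 0.05. Lmod1 is left out because it had 0 counts in knockout. Of the contractile genes, 4 lie below -4. They were chosen with this contrast known, so nothing is read from their place beside the other lists.

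The genes whose pattern over the 6 libraries was nearest to that of Acta2 were Col1a2, AI593442, Loxl2, Tgfb1i1 and Krt18, out of 10230 genes with a mean of at least 5 CPM. Likeness is the root mean square difference between centred log2 CPM profiles, which was 0.21 for Col1a2, 0.23 for AI593442, 0.24 for Loxl2, 0.31 for Tgfb1i1 and 0.54 for Krt18. Col1a2, a chain of type I collagen, went from 854 ± 114 to 15.0 ± 2.08 CPM. Loxl2, a collagen crosslinking enzyme, went from 44.4 ± 2.61 to 0.701 ± 0.125 CPM, and Tgfb1i1, the focal adhesion LIM protein Hic-5, from 16.5 ± 1.57 to 0.281 ± 0.0976 CPM. With 6 libraries in 2 groups, a profile of this kind is set almost wholly by the size of the difference between the groups.

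Library totals ran from 38735864 to 49344079 counts. Markers of other cells were examined because contractile genes also mark mural cells and fibroblasts. Of 13 mural markers, Abcc9, Higd1b and Vtn were at 0 in every library, and the summed level ran from 92.5 to 107 CPM across wild-type libraries and from 124 to 139 CPM across knockout libraries. That sum was mostly Pdgfrb, which rose from 81.1 ± 6.84 to 129 ± 7.62 CPM. Without it the mural sum ran from 19.1 to 20.4 CPM in wild type against 3.29 to 3.73 CPM. Of 6 mural markers tested 4 fell and 1 rose, where 32.1% of all genes fell and 31.9% rose. Those that fell were Cspg4 (8.66 to 0.127 CPM), Mcam (4.81 to 0.198 CPM), Rgs5 (2.62 to 0.472 CPM) and Notch3 (1.68 to 0.317 CPM). Anpep did not pass, at 1.79 and 2.27 CPM with knockout wholly above wild type (edgeR adjusted p = 0.0727). Of 12 fibroblast markers 8 were tested, and 3 rose and 3 fell, where 31.9% of all genes rose and 32.1% fell. The sum of the 12 ran from 2736 to 3659 CPM across wild-type libraries and from 1936 to 2542 CPM across knockout libraries. The most abundant, Col1a1, did not pass, at 1930.5 ± 365 and 1457.8 ± 309 CPM with overlapping groups (edgeR adjusted p = 0.0726). Col3a1 did not pass either, at 384 and 365 CPM (edgeR adjusted p = 0.515). Most of the difference in the fibroblast sum was Col1a2, given above. S100a4 and Mfap5 also fell, while Dcn rose from 1.27 to 32.7 CPM, Pdpn from 90.8 to 401 CPM and Pdgfra from 39.8 to 49.02 CPM. These marker genes, and the sums without their most abundant gene, were singled out after their values were seen. The part of mural or fibroblast-like cells in the contractile genes was not tested. The 10 endothelial markers summed to 519 to 555 and 544 to 572 CPM, mostly Cdh5 (415 and 435 CPM), and Cldn5 was at 0. Of the 7 tested, 2 rose and 2 fell, where 31.9% of all genes rose and 32.1% fell. The endothelial genes called are named after their values were seen. Vwf rose from 0.650 to 5.69 CPM and Kdr from 1.65 to 7.78 CPM. Tek fell from 1.40 to 0.295 CPM and Egfl7 from 4.25 to 2.10 CPM. The 11 immune markers summed to 3.29 to 3.62 and 4.84 to 5.41 CPM, mostly Cd68, with Adgre1, C1qa and Cd3e at 0. Cd68, the only immune marker tested, rose from 3.01 to 4.42 CPM (edgeR adjusted p = 0.00346). Below the filter, Lyz2 had 0, 1 and 0 wild-type and 10, 18 and 16 knockout counts. Ptprc had 11, 10 and 10 against 7, 2 and 2. Lyz2 and Ptprc are named after their values were seen. The 12 markers of striated muscle summed to 6.05 to 8.25 and 12.7 to 12.97 CPM, mostly Tnnt2, with Myod1, Myog and Myf5 at 0. Of 11 glial and neural stem markers Olig1, Olig2 and Sox10 were at 0. Of the 6 tested, 5 fell and 0 rose, where 32.1% of all genes fell and 31.9% rose. The sum ran from 5147 to 5368 and from 2042 to 2173 CPM, mostly Vim (4788 and 1881 CPM). Without Vim it ran from 472 to 517 and from 236 to 258 CPM.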

How the data were processed

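Poly(A)-selected RNA of 6 SB28 libraries was read from 1 table of raw counts per gene symbol that the authors deposited, without normalization or pooling. As listed without roles in the submitters' processing notes, the tools included STAR 2.7.1a and HTSeq 0.11.2, and the builds named are GRCm38 and mm10. For the annotation release and the strand setting, each is not given in the sources used here. Columns were matched to samples by title, and 0 columns belonged to other samples.

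Genes were kept by filterByExpr (14877 of 55453, holding 99.94% to 99.95% of counts), scaled by TMM and compared by group with glmQLFit and glmQLFTest in edgeR 4.0.16 (R 4.3.3), with Benjamini-Hochberg adjustment over the tested genes and a threshold of 0.05. The SE of a log2 fold change is its size over the root of its F statistic. Alternatives were other scalings and filters, DESeq2 1.42.0, a replicate block and leaving out libraries. The fit was also run on simulated counts, drawn independently for each library. These lack the deviations shared between real libraries, so they are no check of the calls against such deviations. Same-numbered libraries deviated together (r = 0.70, 0.40 and 0.37 over 12291 genes), so the blocked value stands beside a result where it changes a call. Wild type 3 with knockout 2 (r = 0.44) and wild type 2 with knockout 3 (r = 0.32) deviated together about as much, so these correlations set the libraries numbered 1 apart and do not tell number 2 from number 3. The pairing comes from the numbers in the titles. No pair of replicates lay within sampling noise (chi-square per degree of freedom from 3.41 to 48.4), so all were kept. Intervals and floors cover counting error only, as reads carry no molecular identifiers.

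Gene models are GENCODE M21 on GRCm38, matched by symbol (54402 matched 1 gene). Level per kb divides CPM by the length of all exons joined. Protein sequences were not used here, so identity was computed on coding bases. The members and the gene lists were chosen with earlier results of these data known. Named genes are the members, all regulators and family genes, from each other list up to 4 tested genes with the smallest adjusted p and the 2 most abundant not past the threshold, Ppp2ca, and the 5 nearest to Acta2. Genes named after their values were seen are marked so. Those tested were refitted under the same alternatives, except Anpep, Col1a1, Col3a1 and the endothelial, immune and striated muscle markers. A list of related genes and a few listed genes are not reported here, and the counts of the lists leave them out.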

Additional observations from a re-analysis of the deposited data

How the results depend on the processing

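Over 13 alternatives the 10 contractile genes kept 8 with knockout wholly below and 1 wholly above, and no log2 fold change of the 8 tested genes with counts in both groups changed sign. Groups already apart could hardly come to overlap or change sign under these alternatives, so only the ranges are informative. The log2 fold change ran from -5.69 to -5.58 for Acta2, from -6.45 to -6.20 for Tagln, from -4.82 to -4.70 for Myl9, from -1.94 to -1.79 for Cnn2, from -1.69 to -1.57 for Tpm1 and from -1.23 to -1.11 for Tpm2. Depth limits Cnn1 (from -6.07 to -4.91), Myh11 (from 1.19 to 2.24), Lmod1 and Actg2. Myh11 and Lmod1 did not pass the filter of a mean CPM of at least 1 in one group. Their fold changes therefore cover 12 alternatives. Over all genes, the call counts moved by less than 1.5 times under every alternative.

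With upper-quartile factors 1 other family gene and 2 other smooth muscle genes were called higher. With the replicate block, and without both libraries numbered 1, 8 SRF target genes were called higher. Leaving out 1 library at a time gave 1 to 2 higher family genes, 2 to 5 higher smooth muscle genes and 3 to 5 higher SRF targets. The block changed no other call of a refitted named gene than those given with the results. The cause of these shifts was not tested. A few log2 fold changes near 0 changed sign, none of them past the threshold. Slmap was -0.0476 with upper-quartile factors, -0.0276 without both libraries numbered 1, and from -0.0506 to 0.0697 with 1 left out. Elk3 was 0.0084 without both and from -0.0267 to 0.018 with 1 left out, and Mrtfa from -0.0010 to 0.28. Pcsk7 was -0.0184 with upper-quartile factors, and Smtnl2 was 0.20 without both and from -0.48 to 0.0461 with 1 left out.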
